A study of Mus musculus and Rattus norvegicus with 18 samples.

Results

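Ribosome footprints in the hearts of Mettl1 conditional knockout mice (cKO) were compared with those of control mice (Ctrl). The comparison used the 4 heart Ribo-seq libraries of a series of 18 samples, 2 per genotype. All came from whole hearts of 4-week-old C57BL/6 mice, and the genotypes are given as Ctrl and M1cKO. The sources used here do not give the deleted part of the gene, the driver of the deletion or the cells that carried it. Ribo-seq sequences the short stretches of mRNA that ribosomes shield, so a gene's footprint count reflects both how much of its mRNA was present and how heavily ribosomes occupied it. The table lists 26398 open reading frames of 17866 genes. Each gene was represented by its most occupied frame, summed over the 4 libraries, and 13514 of these genes had enough footprints to be tested.

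Mettl1 and its partner Wdr4 form the methyltransferase that places N7-methylguanosine in the variable loop of certain tRNAs. The mark stabilises those tRNAs and helps ribosomes move through the codons they read. In the weeks after birth the mouse heart turns from glucose to fatty acid oxidation, replaces fetal by adult sarcomere proteins and silences natriuretic peptides outside the atria, and stressed hearts bring back parts of the fetal programme. The series addresses Mettl1 in ketogenesis, translation and the maturation of cardiomyocytes.

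Footprints on Mettl1 itself (chromosome 10, 127041549 to 127046365, GRCm38) stood at 6.28 and 6.62 CPM in the Ctrl libraries and at 2.22 and 2.22 CPM in the cKO libraries. Both knockout libraries lay below both controls (log2 fold change −1.54, SE 0.21, adjusted p = 1.0e-04, n = 2 against 2), and each adjusted p below comes, unless another tool is named, from edgeR's quasi-likelihood fit, adjusted by Benjamini and Hochberg's method over all tested genes. The knockout level of Mettl1 was 0.345 of the control level, and Eef1akmt3 overlaps the gene. CPM are footprints per 1e6 of a library, scaled by normalisation factors that edgeR computes to balance the libraries. Footprints on Wdr4 went from 4.45 and 3.43 CPM to 5.42 and 4.96 CPM and did not pass 0.05 (log2 fold change 0.41, SE 0.21, adjusted p = 0.208). Library totals ran from 25.17 to 39.68 M footprints, and log2 levels correlated at 0.9886 between the controls, 0.9906 between the knockouts and 0.977 to 0.9789 between genotypes (Pearson's r across genes, which are not independent). Nothing in the labels says that the 2 libraries of a genotype came from separate animals, and p-values then cover no more than the spread among these 4 libraries, which may be technical.

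Of the 13514 genes tested, 1231 (9.11%) had more footprints in cKO hearts and 990 (7.33%) had fewer. In whole hearts fewer cells of a type and less RNA per cell cannot be told apart. Most changes were small. The median log2 fold change was 0.60 among the genes that rose and −0.44 among those that fell, and 336 of the first and 69 of the second changed at least 2-fold. Both knockout libraries lay above both controls for 28.7% of tested genes and below them for 27.1%. Abundant genes fell more often than they rose. Of 137 genes above 1000 CPM, 55 fell and 15 rose, whereas of 1879 genes at or below 1 CPM 20 fell and 108 rose. Falls made up 9.47% of genes above 10 and up to 100 CPM. They made up 21.46% above 100 and up to 1000 CPM, and 40.15% above 1000 CPM. Lists below are set against all tested genes, not against genes of like level. The tested genes include some that code for no protein, whose counts are not footprints on mRNA. Among them are Rpph1 (mean 7314 CPM in Ctrl, 4799 CPM in cKO) and mt-Rnr1 (3620 and 2241 CPM). Both lie above 1000 CPM and were called lower. Scaling by library totals shifted the median of all genes by 0.07 and gave 1639 genes higher and 657 lower, or 71.39% of the calls higher against 55.43%. Without cKO 1 the counts were 667 and 481, and without cKO 2 they were 900 and 637.

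**Figure D1:**
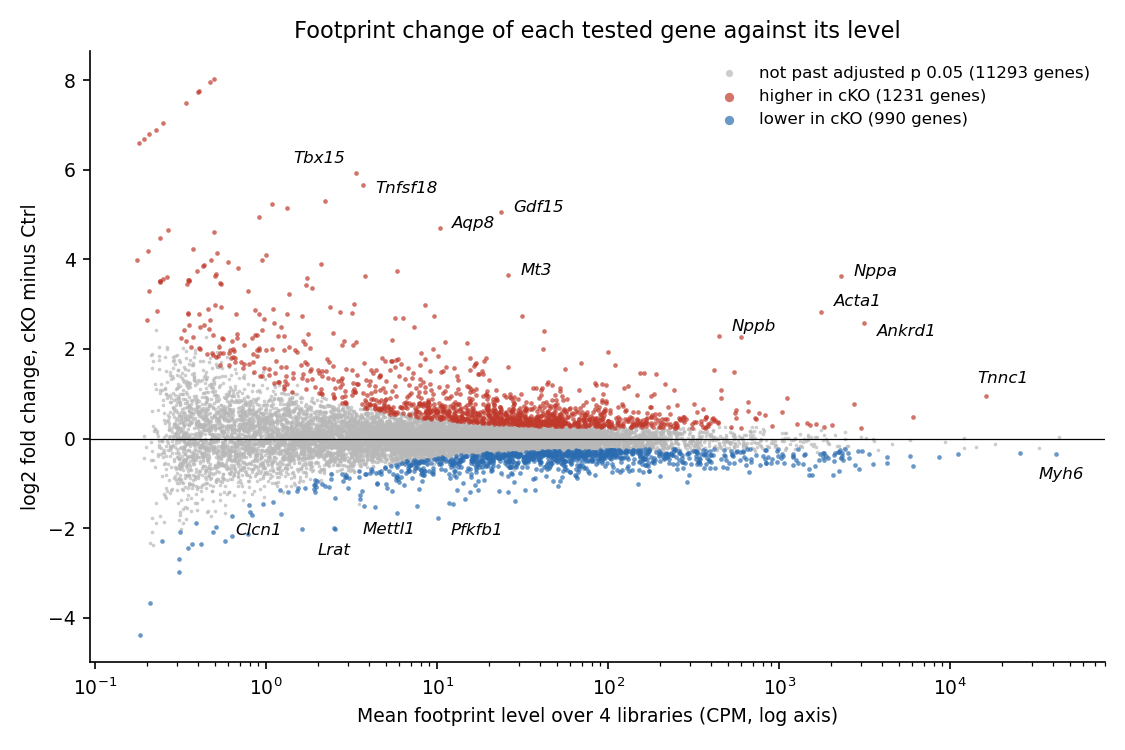
Each point is 1 of the 13514 tested genes, placed by its mean footprint level over the 4 libraries (CPM, log axis) and its log2 fold change (cKO minus Ctrl); red genes were higher, blue genes lower and grey genes did not pass adjusted p 0.05. Nppa, Acta1, Ankrd1 and Tnnc1 combined a high level with a rise, and Myh6 was the most abundant gene that fell; 10 red genes had no Ctrl footprint at all, so their height depends on the fitting method.

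Tbx15, Tnfsf18, Gdf15 and Aqp8 were among the largest rises. Gdf15, a cytokine secreted under stress (chromosome 8, 70629393 to 70632470), went from 1.33 and 1.40 CPM to 46.7 and 44.7 CPM, a 33.5-fold rise (log2 fold change 5.06, SE 0.14, adjusted p = 4.7e-12). Aqp8, a water channel, went from 0.582 and 0.911 CPM to 20.05 and 19.9 CPM (log2 fold change 4.69, SE 0.20, adjusted p = 4.1e-10). Both were picked among genes with no overlap between the genotypes, so that their genotypes stand apart follows from the choice. Tbx15, a T-box transcription factor of limb and muscle development, had 6 footprints in the control libraries and 497 in the knockouts, a ratio of 66.2 with a 95% counting interval from 30.2 to 181. Its log2 fold change was 5.92 (SE 0.39, adjusted p = 7.8e-08), 6.69 without Ctrl 1 and 5.28 without Ctrl 2. Tnfsf18, the ligand of the GITR receptor, had 8 footprints against 542 (ratio 54.2, interval 27.3 to 126). Its log2 fold change was 5.66 (SE 0.38, adjusted p = 9.1e-08), 5.07 without Ctrl 1 and 7.31 without Ctrl 2. The intervals cover counting error only.

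The other large rises were of varied kinds. Mt3, a zinc-binding metallothionein best known from brain, rose from 3.08 and 4.43 CPM to 49.4 and 46.5 CPM, and Tubb3, a neuronal β-tubulin, rose from 0.873 and 0.759 CPM to 12.4 and 9.21 CPM. Edn3, an endothelin peptide, went from 0.748 and 0.425 CPM to 7.59 and 6.38 CPM, and Nlrc3, of the NOD-like receptor family, went from 0.249 and 0.273 CPM to 3.94 and 3.93 CPM. The adjusted p was 2.6e-10 for Mt3, 6.6e-08 for Tubb3, 6.5e-07 for Edn3 and 2.4e-06 for Nlrc3. Among genes at higher levels, Ptgds, the prostaglandin D2 synthase, rose from 229.5 and 180.3 CPM to 1042 and 936 CPM (log2 fold change 2.27, SE 0.11, adjusted p = 1.3e-09). Gsto1, a glutathione transferase, rose from 283 and 289.6 CPM to 809 and 787 CPM (log2 fold change 1.48, SE 0.08, adjusted p = 4.3e-09). Rcan1, which binds the phosphatase calcineurin and is induced by it, rose from 52.97 and 53.2 CPM to 175 and 154 CPM (log2 fold change 1.63, SE 0.09, adjusted p = 9.9e-09). In Ptgds, Gsto1 and Rcan1 both knockout libraries lay above both controls.

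The falls were smaller than the rises. Pfkfb1, the bifunctional enzyme that sets fructose 2,6-bisphosphate, fell from 15.3 and 16.1 CPM to 4.09 and 5.11 CPM (log2 fold change −1.77, SE 0.15, adjusted p = 1.6e-06). Clcn1, the chloride channel of skeletal muscle, fell from 2.62 and 2.55 CPM to 0.449 and 0.837 CPM (log2 fold change −2.02, SE 0.36, adjusted p = 0.00126). Hnmt, which inactivates histamine, fell from 17.7 and 16.5 CPM to 6.29 and 6.35 CPM (log2 fold change −1.43, SE 0.13, adjusted p = 3.4e-06), and Sema6c, a semaphorin, fell from 6.20 and 4.83 CPM to 2.27 and 1.59 CPM (log2 fold change −1.50, SE 0.25, adjusted p = 6.4e-04). Ttll1, a tubulin polyglutamylase, fell by 1.40 on an 87-codon frame that held slightly more footprints than its 423-codon frame, and by 0.82 on the latter (adjusted p = 1.1e-04). For some of the largest falls 1 control library decided the size. Lrat, which stores vitamin A as esters, stood at 5.78 and 2.22 CPM in the Ctrl libraries and at 1.25 and 0.693 CPM in the cKO libraries. The change of −2.00 on the log2 scale (adjusted p = 0.00354) came to −1.18 without Ctrl 1 (adjusted p = 0.105). Col2a1, the cartilage collagen, stood at 4.95 and 17.5 CPM in the Ctrl libraries and at 4.37 and 3.64 CPM in the cKO libraries, and its value of −1.51 (adjusted p = 0.0102) was −0.31 without Ctrl 2 (adjusted p = 0.467) and −2.12 without Ctrl 1, and DESeq2 gave it an adjusted p of 0.301. The orphan nuclear receptor gene Nr4a2 fell by 1.67 (adjusted p = 5.3e-04) and by 1.10 without Ctrl 1 (adjusted p = 0.0116).

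**Figure D2:**
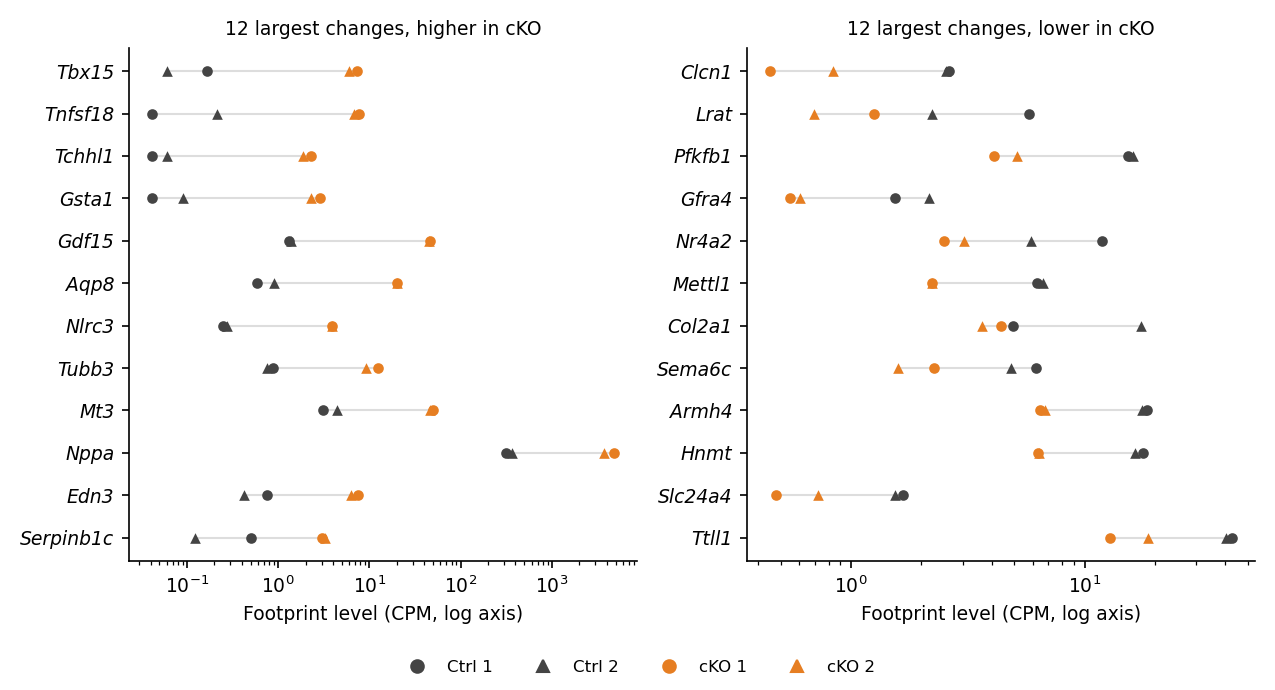
Footprint level (CPM, log axis) of the 12 largest changes in each direction, with 1 point per library (grey Ctrl, orange cKO; circle replicate 1, triangle replicate 2). Only genes whose libraries did not overlap between genotypes were eligible, so the gap between grey and orange points follows from the choice. On the right panel Lrat and Col2a1 show control libraries that lie far apart.

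Among genes of cardiac stress and of the fetal heart, 13 of 28 (46.4%) rose and 4 (14.3%) fell, against 9.11% and 7.33% of all genes. The other 11 did not pass the test. The list's median log2 fold change was 0.38 against 0.004 for all genes, and 0.63 without Ctrl 2 and 0.59 without cKO 2. The list held 0.580% and 0.575% of all footprints in the control libraries and 1.88% and 1.76% in the knockouts. Acta1, Ankrd1, Nppa and Nppb, singled out after their values were seen, made up 96.1% of this gain, and the other 24 genes held 0.396% and 0.402% in the controls and 0.453% and 0.442% in the knockouts. Nppa, the atrial natriuretic peptide (chromosome 4, 148000722 to 148002074), went from 319 and 369.8 CPM to 4768 and 3689 CPM (log2 fold change 3.62, SE 0.12, adjusted p = 2.4e-11). Nppb, the B-type peptide, went from 159.7 and 141 CPM to 665 and 809 CPM (log2 fold change 2.30, SE 0.10, adjusted p = 6.5e-10). Ankrd1, an ankyrin-repeat protein of the stretched sarcomere, went from 982 and 819 CPM to 5496 and 5229 CPM (log2 fold change 2.57, SE 0.09, adjusted p = 7.9e-11), and Acta1, the skeletal α-actin of the fetal heart, went from 443 and 425 CPM to 3093 and 3056 CPM (log2 fold change 2.83, SE 0.08, adjusted p = 4.7e-12). In all 4 genes both knockout libraries lay far above both controls. Ccn2, a matricellular growth factor, rose from 223 and 203 CPM to 609 and 625 CPM, Tgfb2 rose from 9.65 and 8.99 CPM to 26.1 and 24.3 CPM and Cacna1h, a T-type calcium channel subunit, rose from 10.5 and 10.5 CPM to 23.7 and 19.8 CPM (adjusted p = 5.3e-09, 1.0e-06 and 3.9e-05). Slow skeletal troponins rose too, Tnnt1 by 0.95 (SE 0.12) and Tnni1 by 1.53 (SE 0.23). The pacemaker channel gene Hcn4 fell by 0.82 (SE 0.17) and the other T-type gene Cacna1g by 0.61 (SE 0.11), against the direction of the list. Acta2 (log2 fold change −0.42, adjusted p = 0.00617) and Pkm (−0.35, adjusted p = 0.00474) fell too, and the Acta2 call depended on the libraries kept. Among the list's myosin genes Myl9 rose (0.71, adjusted p = 3.7e-05). Myh7, Myl4 and Myl7 did not pass (0.004, −0.018 and 0.14, adjusted p = 0.993, 0.972 and 0.770). Of 10 atrial marker genes, Nppa included, 1 rose and 2 fell. The rises were 4 without cKO 2 and 2 without Ctrl 2 or with library totals, and the falls 1 without Ctrl 2, with library totals or by DESeq2. Actins are near-identical in their coding sequence, and the sources used here do not say how the authors assigned footprints that such genes share.

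**Figure D3:**
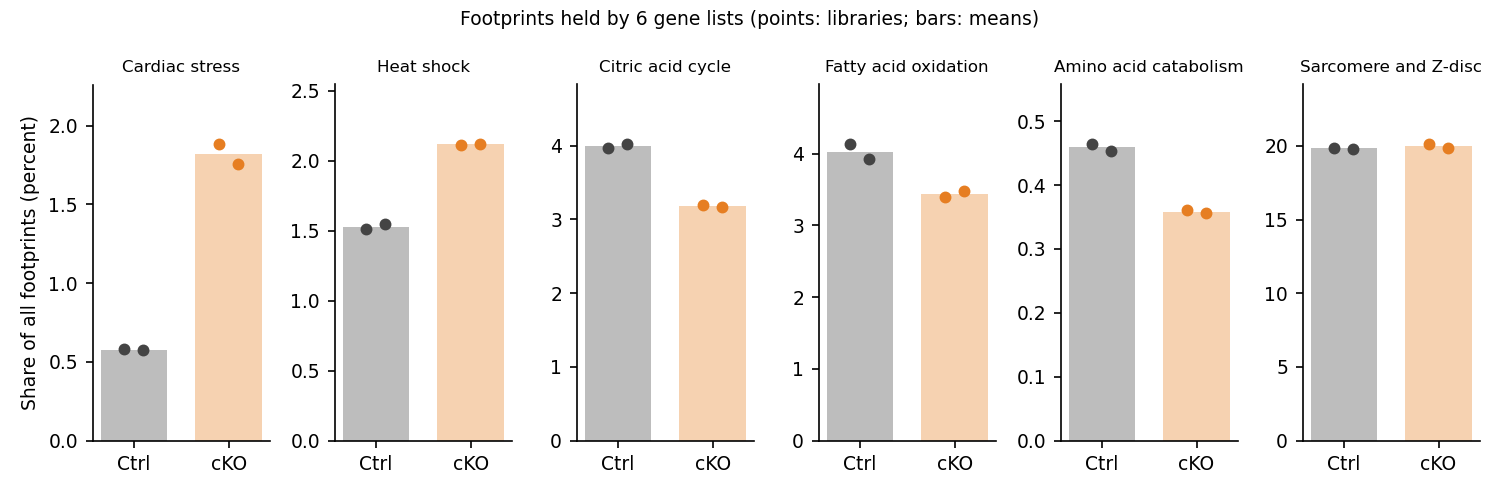
Share of all footprints (percent, axes from 0) held by 6 gene lists, with 1 point per library and bars at the means of the 2 libraries. The cardiac stress and heat shock lists lie higher in cKO, the 3 fuel lists lie lower, and the sarcomere list overlaps.

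Sarcomere genes split. Of 39 adult sarcomere and Z-disc genes, 12 (30.8%) rose and 11 (28.2%) fell, against 9.11% and 7.33% of all tested genes. Of all tested genes above 1000 CPM, where Myh6 and Tnnc1 lie, 51.1% were called. Library totals left 7 lower, and 6 fell without cKO 1 or without cKO 2. The list held 19.86% and 19.80% of footprints in the controls and 20.13% and 19.84% in the knockouts, which overlap. Tnnc1, the cardiac troponin C, gained more footprints than any other gene (from 11145 and 10814 CPM to 22840 and 19823 CPM; log2 fold change 0.96, SE 0.08, adjusted p = 1.3e-06). Myh6, the adult α-myosin heavy chain, lost the most (from 49173 and 43293 CPM to 36418 and 36454 CPM; log2 fold change −0.34, SE 0.08, adjusted p = 0.00677). Trim54, a ubiquitin ligase of the sarcomere, rose from 330.5 and 301 CPM to 606 and 581 CPM, and Flnc, filamin C, rose from 212 and 257 CPM to 392.1 and 414 CPM (adjusted p = 1.8e-06 and 3.2e-05). Fhl2, a LIM protein that binds titin, fell from 2507 and 2755 CPM to 1469 and 1533 CPM, and Cmya5, also called myospryn, fell from 219 and 179.6 CPM to 94.95 and 101 CPM (adjusted p = 4.5e-06 and 3.4e-06). Myom1, of the M-band, fell from 359 and 365 CPM to 249 and 241 CPM (adjusted p = 1.0e-04). Frames of 1 gene could differ: Pdlim5, a Z-disc scaffold, fell on its most occupied frame of 239 codons from 380.2 and 378 CPM to 194 and 239 CPM (log2 fold change −0.81, adjusted p = 2.7e-05). On its 482-codon frame the level rose from 41.2 and 44.1 CPM to 54.6 and 56.4 CPM (0.38, adjusted p = 0.00752).

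Calcium handling leaned lower, with 29.6% of tested members lower and 3.70% higher, against 7.33% and 9.11% of all tested genes. Ion channels leaned lower too. Adrenergic genes were called in both directions, with 33.3% lower and 16.7% higher. The adrenergic list's shares of footprints overlapped (0.168% and 0.180% in the controls, 0.177% and 0.176% in the knockouts). Of 27 tested calcium cycling genes 8 fell and 1 rose, and the rises were 2 without Ctrl 1, Ctrl 2 or cKO 2 and 3 with library totals. Ryr2, the release channel of the sarcoplasmic reticulum, went from 1395 and 1324 CPM to 1055 and 1009 CPM (log2 fold change −0.40, SE 0.08, adjusted p = 0.00181). Trdn, which anchors that channel complex, went from 864 and 759 CPM to 554 and 573 CPM, and Srl, sarcalumenin, went from 944 and 1033 CPM to 697 and 658 CPM (adjusted p = 3.8e-04 and 2.0e-04). Cacna1c and Cacna2d1, subunits of the L-type channel, fell by 0.40 (SE 0.08) and 0.55 (SE 0.08). S100a1, a calcium sensor, was the member that rose (from 937 and 726 CPM to 1329 and 1169 CPM; log2 fold change 0.59, SE 0.11, adjusted p = 0.00120). The calcium pump gene Atp2a2 was represented by a 38-codon frame at 43.6 to 78.0 CPM, and its 1044-codon frame stood at 4.88 to 9.32 CPM. It fell by 0.75 on the first (adjusted p = 3.6e-05) and by 0.66 on the second (adjusted p = 0.0155). Of 28 tested channel and junction genes 7 fell and 2 rose, with 4 lower without cKO 2 and 1 higher without Ctrl 2 or cKO 2. Kcnj3, an inward rectifier, fell from 7.65 and 8.11 CPM to 4.37 and 4.33 CPM (adjusted p = 0.00252). Of 18 tested adrenergic genes 6 fell (3 without Ctrl 1) and 3 rose. Adra1b, an α1 adrenoceptor, fell from 20.5 and 27.4 CPM to 10.5 and 11.3 CPM, and Pde4d, a cAMP phosphodiesterase, fell from 53.7 and 40.9 CPM to 25.3 and 25.3 CPM (adjusted p = 4.3e-05 and 8.8e-05). Maoa, a monoamine oxidase that breaks down catecholamines, rose by 0.76 (SE 0.14).

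Genes of mitochondrial fuel oxidation fell together, by modest amounts. In the citric acid cycle list 66.7% fell, against 7.33% of all tested genes. By level, falls made up 21.46% of genes above 100 and up to 1000 CPM and 40.15% above 1000 CPM. Of 33 citric acid cycle and pyruvate entry genes 22 fell and 0 rose in edgeR's test (25 and 0 at an unadjusted p under 0.05, 22 and 0 by DESeq2 and by limma-voom), and all 33 log2 fold changes lay below 0. The median was −0.36. Got1, an aspartate aminotransferase, went from 1902 and 1887 CPM to 1093 and 1064 CPM (log2 fold change −0.81, SE 0.07, adjusted p = 2.4e-06). Sdhb went from 1905 and 1991 CPM to 1316 and 1229 CPM (log2 fold change −0.61, SE 0.08, adjusted p = 5.1e-05), and Idh3a, of the NAD-dependent isocitrate dehydrogenase, went from 1482 and 1398 CPM to 972 and 944 CPM (log2 fold change −0.59, SE 0.08, adjusted p = 6.8e-05). Mdh1, Mdh2, Sdha and Cs, the citrate synthase, fell by 0.59, 0.48, 0.43 and 0.40 (SE 0.07 to 0.08). The list's share of footprints was 3.97% and 4.02% in the controls and 3.19% and 3.16% in the knockouts (exact permutation test, p = 0.333, the smallest that 2 against 2 libraries allow). Library totals left 20 lower, and the count lay between 17 and 24 without any 1 library.

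Fatty acid uptake and oxidation followed the same direction, with 61.5% of the list lower and 2.56% higher, against 7.33% and 9.11% of all tested genes. Of 39 genes 24 fell and 1 rose (2 without Ctrl 1 or with library totals, 0 without cKO 1 or cKO 2), with a median of −0.36. The gene that rose was Plin2, a lipid droplet coat protein, singled out after its value was seen (from 140.1 and 146 CPM to 179 and 177 CPM; log2 fold change 0.31, SE 0.08, adjusted p = 0.0118; adjusted p = 0.147 without cKO 1 and 0.0773 without cKO 2). Echs1, the enoyl-CoA hydratase, went from 872 and 804 CPM to 502 and 489 CPM (log2 fold change −0.76, SE 0.08, adjusted p = 7.9e-06). Slc27a1, a fatty acid transporter, went from 146 and 134 CPM to 89.6 and 81.1 CPM (log2 fold change −0.71, SE 0.09, adjusted p = 4.5e-05), and Acadvl, the dehydrogenase of very long chains, went from 2018 and 1980 CPM to 1428 and 1434 CPM (log2 fold change −0.48, SE 0.07, adjusted p = 3.1e-04). Lpl, the lipase that releases fatty acids from lipoproteins, went from 13048 and 11891 CPM to 9722 and 9863 CPM (log2 fold change −0.35, SE 0.08, adjusted p = 0.00493). Acot1 fell by 0.99 (SE 0.12), but it has close paralogs. The list's share went from 4.14% and 3.92% to 3.40% and 3.47%.

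The catabolism of branched-chain and other amino acids also fell in most members. Of 28 genes 21 fell and 0 rose in edgeR's test (22 and 0 at an unadjusted p under 0.05, 20 and 0 by DESeq2, 21 and 0 by limma-voom). The median was −0.40, and 13 fell without cKO 2. Gcdh, which degrades lysine and tryptophan, went from 134 and 131 CPM to 79.4 and 78.5 CPM (log2 fold change −0.75, SE 0.08, adjusted p = 1.5e-05). Ivd, of leucine breakdown, went from 524 and 501 CPM to 337 and 312 CPM (log2 fold change −0.66, SE 0.08, adjusted p = 3.2e-05), and Bckdhb, a subunit of the branched-chain keto acid dehydrogenase, went from 81.9 and 85.7 CPM to 52.5 and 51.5 CPM (log2 fold change −0.69, SE 0.09, adjusted p = 5.1e-05). The list's share went from 0.465% and 0.453% to 0.362% and 0.356%. In these 3 genes, as in the citric acid cycle genes above, both knockout libraries lay below both controls.

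**Figure D4:**
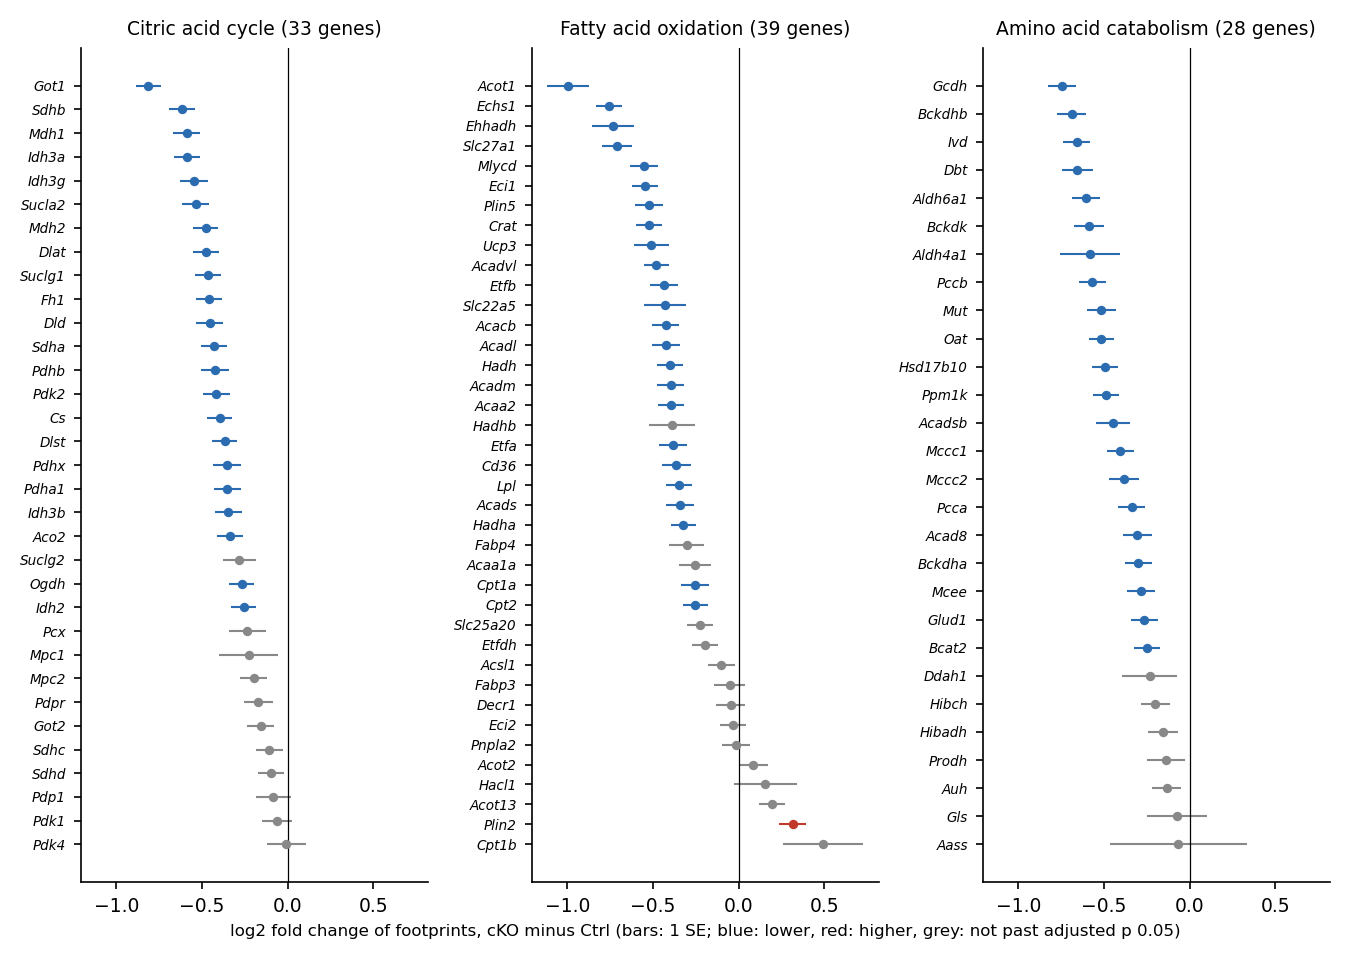
Log2 fold change of footprints (cKO minus Ctrl, bars 1 SE) for the 33, 39 and 28 tested genes of the citric acid cycle, fatty acid oxidation and amino acid catabolism; blue genes were lower, red higher and grey not past adjusted p 0.05. All points of the first and last panels lie left of 0, and 5 fatty acid genes lie right of it.

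Glucose use and the regulators of mitochondria also leaned lower, with exceptions. Of the tested members 40.6% and 18.2% fell, against 7.33% of all tested genes. Rises made up 12.5% and 9.09%, against 9.11%. Of 32 tested glucose transport, glycolysis and glycogen genes 13 fell and 4 rose (1 without cKO 1). The glycogen enzymes Phkg1 and Pygb fell by 1.14 (SE 0.11) and 0.57 (SE 0.07). Slc2a4, the insulin-responsive glucose transporter, went from 755 and 721 CPM to 539 and 539.6 CPM, Pfkm, the muscle phosphofructokinase, went from 1487 and 1553 CPM to 1095 and 979 CPM, and Ldha, a lactate dehydrogenase subunit, went from 303 and 366 CPM to 210.0 and 217 CPM (adjusted p = 6.3e-04, 2.1e-04 and 1.5e-04). Gpd1, the cytosolic glycerol phosphate dehydrogenase, rose from 109 and 115 CPM to 182 and 155 CPM (adjusted p = 3.8e-04). Of 22 regulators of mitochondrial biogenesis 4 fell and 2 rose, with 7 lower when all frames of a gene were summed, and without cKO 2 the counts were 2 and 1 (1 higher also without cKO 1). Ppargc1a, the coactivator PGC-1α, went from 208 and 194 CPM to 123 and 116 CPM (log2 fold change −0.75, SE 0.08, adjusted p = 1.5e-05) and Perm1, which acts with it in muscle, went from 81.7 and 81.9 CPM to 55.9 and 51.0 CPM (log2 fold change −0.61, SE 0.09, adjusted p = 1.9e-04).

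Ketone body genes, whose synthesis pathway the series title names, changed in both directions. Of 9 genes 2 (22.2%) fell and 2 (22.2%) rose, against 7.33% and 9.11% of all tested genes. Oxct1, an enzyme of ketone use, stood at 1169 and 1154 CPM in the Ctrl libraries and at 945 and 873 CPM in the cKO libraries. Oxct1 fell by 0.35 (adjusted p = 0.00467), a call lost without cKO 2 (0.0896). The thiolase Acat1 fell by 0.28 (adjusted p = 0.0186), a call that library totals ended (0.0710), as did leaving out Ctrl 1 (0.0585), cKO 1 (0.126) or cKO 2 (0.140). Bdh1, which interconverts the 2 main ketone bodies, rose by 0.52 (adjusted p = 0.00818), and Aacs, which activates acetoacetate in the cytosol, rose by 0.81 (adjusted p = 0.00312). Both calls were lost without cKO 1 (0.160 and 0.0772).

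Of 36 tested complex I genes of the respiratory chain 4 (11.1%) fell and 3 (8.33%) rose, against 7.33% and 9.11% of all tested genes. Falls made up more of the abundant genes, 21.46% above 100 and up to 1000 CPM and 40.15% above 1000 CPM. Ndufs1, the largest catalytic-core subunit, fell from 1931 and 1719 CPM to 1142 and 1148 CPM, and Ndufc1, a small accessory subunit, rose from 474 and 475 CPM to 843 and 833 CPM (adjusted p = 3.2e-05 and 2.4e-06). Of 37 tested genes of complexes III, IV and V 9 (24.3%) fell and 5 (13.5%) rose, with 4 lower by library totals. Without cKO 1 the counts were 4 and 0, and 2 rose without Ctrl 1 or cKO 2. Cox7a1 and Cox7b, subunits of cytochrome oxidase, fell by 0.47 (SE 0.08) and 0.55 (SE 0.09). Whether these lists differ from the citric acid cycle list was not tested. Of the 13 protein-coding genes of the mitochondrial genome 6 could be tested. Of these 3 fell and 0 rose in edgeR's test (4 and 0 at an unadjusted p under 0.05), but 1 fell without Ctrl 1 or cKO 1 and by DESeq2, 3 by limma-voom, and 5 without Ctrl 2. Their frames in the table are short, 90 codons for mt-Nd1 and 42 for mt-Co1. Mitochondria read the stop codon UGA of the standard code as tryptophan, and the values describe these frames alone. mt-Nd1 went from 2940 and 2656 CPM to 1451 and 1921 CPM (log2 fold change −0.73, SE 0.11, adjusted p = 2.3e-04).

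Of 77 tested mitochondrial ribosomal protein genes 18 (23.4%) fell, against 7.33% of all tested genes, and 5 (6.49%) rose, against 9.11%. Without cKO 1 the counts were 9 and 3, and 11 fell without cKO 2. Mrpl14 went from 93.1 and 95.9 CPM to 57.8 and 55.9 CPM and Mrps6 from 74.2 and 75.4 CPM to 116 and 113 CPM (adjusted p = 2.6e-05 and 1.0e-04). Of 41 tested import, chaperone and protease genes 8 (19.5%) fell and 4 (9.76%) rose, with 5 lower by library totals, 5 lower without cKO 1, and 4 lower and 2 higher without cKO 2. Timm10, a chaperone of the intermembrane space, rose from 65.1 and 54.3 CPM to 146 and 125 CPM (log2 fold change 1.18, SE 0.10, adjusted p = 1.8e-06). Trap1, the mitochondrial Hsp90, fell from 302 and 314 CPM to 186 and 201 CPM (log2 fold change −0.67, SE 0.08, adjusted p = 3.1e-05).

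The machinery of cytosolic translation leaned higher. Of the synthetase list below 45.5% rose and 4.55% fell, and of tested ribosomal protein genes 36.4% and 4.55%. Among all tested genes 9.11% rose and 7.33% fell. Of 22 genes of cytosolic aminoacyl-tRNA synthetases and their complex, most of whose products join amino acids to tRNAs, 10 rose and 1 fell. The median was 0.28. The list includes Aimp2, a scaffold protein of the synthetase complex that joins no amino acid, and Aimp2 is among the 10 that rose. The falls were 0 without Ctrl 1, cKO 1 or cKO 2 and with library totals and 2 without Ctrl 2, and the count of rises stayed between 9 and 11 when any 1 library was left out. Farsa went from 45.6 and 46.7 CPM to 72.8 and 74.2 CPM (log2 fold change 0.67, SE 0.09, adjusted p = 7.1e-05), Rars from 44.4 and 41.7 CPM to 64.2 and 71.3 CPM (log2 fold change 0.65, SE 0.09, adjusted p = 1.7e-04) and Yars from 19.2 and 16.6 CPM to 30.0 and 27.9 CPM (log2 fold change 0.70, SE 0.11, adjusted p = 4.9e-04). Aars, Cars and Sars rose by 0.59, 0.68 and 0.48 (SE 0.08, 0.11 and 0.08). Among 17 mitochondrial synthetase genes edgeR called 0 higher and 2 lower (1 and 5 at an unadjusted p under 0.05, 0 and 1 by DESeq2, 1 and 2 by limma-voom). Without cKO 1 or cKO 2 it called 0 in either direction, without Ctrl 1 and with library totals 1 rose, and without Ctrl 2 and with library totals 1 fell. Of 83 cytosolic ribosomal protein genes 44 passed the filter on low values, and of these 16 rose and 2 fell, but 3 rose without cKO 1 and 10 without Ctrl 2. The whole list held 0.166% and 0.178% of footprints in the controls and 0.214% and 0.193% in the knockouts, and the genes have many processed copies with which footprints may be shared. Rpl3l, the form specific to heart and skeletal muscle, went from 265 and 337 CPM to 211 and 219 CPM (log2 fold change −0.48, SE 0.10, adjusted p = 0.00312; −0.30 without Ctrl 2).

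Of 50 tested initiation and elongation factors 11 rose and 1 fell, with 4 higher without cKO 1, 7 higher without cKO 2 and 3 lower without Ctrl 2. Eef1a1, the elongation factor of most tissues, rose from 73.6 and 89.3 CPM to 247 and 203 CPM (log2 fold change 1.46, SE 0.11, adjusted p = 3.0e-07). Eif4ebp1, an inhibitor of cap-dependent initiation, rose from 71.7 and 82.3 CPM to 110.1 and 113 CPM (log2 fold change 0.54, SE 0.09, adjusted p = 6.9e-04). Eif4g2, an initiation factor that starts at a non-AUG codon, fell from 92.4 and 71.5 CPM to 43.6 and 49.1 CPM (log2 fold change −0.82, SE 0.11, adjusted p = 1.4e-04) on a 700-codon frame, and by 0.53 with all its frames summed. Of 60 tested tRNA modification genes 5 rose and 3 fell, near the share among all genes. Without 1 library the rises were 3 (Ctrl 1 or Ctrl 2), 1 (cKO 1) or 4 (cKO 2), the falls were 1 without Ctrl 1, cKO 1 or cKO 2, and library totals gave 8 rises. Trmt61a, the catalytic subunit of the enzyme for N1-methyladenosine in tRNA, rose from 4.20 and 5.10 CPM to 9.94 and 9.03 CPM (log2 fold change 1.02, SE 0.17, adjusted p = 6.3e-04). Mettl1 had the lowest value of the list.

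Genes of the integrated stress response, in which phosphorylated eIF2 favours translation of the Atf4 message and Atf4 then raises transcription of its targets, rose in part. Among tested members 38.7% rose and 3.23% fell, against 9.11% and 7.33% of all tested genes. Of 31 tested members 12 rose and 1 fell, or 2 without Ctrl 1 or Ctrl 2. The median of 0.11 was 0.24 without Ctrl 1, 0.22 without Ctrl 2, 0.18 without cKO 1, 0.17 with library totals, 0.20 with 1 count as the lowest total allowed and 0.21 on the longest frames. The regulators were seen mainly through short frames. In Atf4 a 59-codon frame held most footprints and went from 52.5 and 52.8 CPM to 80.2 and 88.4 CPM (log2 fold change 0.68, SE 0.09, adjusted p = 7.8e-05). The 288-codon frame of Atf4 stood at 3.28 and 1.09 CPM in the controls and at 4.07 and 3.98 CPM in the knockouts (log2 fold change 0.93, adjusted p = 0.0817). In Atf5 a 58-codon frame went from 8.23 and 7.07 CPM to 18.0 and 19.5 CPM (log2 fold change 1.30, SE 0.13, adjusted p = 9.0e-06), and the 217-codon frame did not pass (0.34, adjusted p = 0.643). In Atf4 and Atf5 the calls therefore concern short frames. Ddit3, the factor CHOP, went from 3.49 and 2.40 CPM to 9.46 and 9.06 CPM on an 80-codon frame (log2 fold change 1.67, SE 0.20, adjusted p = 3.2e-05).

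Of the effectors, Asns, the asparagine synthetase, went from 2.54 and 2.76 CPM to 5.52 and 6.55 CPM (log2 fold change 1.18, SE 0.21, adjusted p = 0.00109). Gadd45a, Gadd45b and Gadd45g, growth arrest proteins, rose by 0.65, 0.87 and 0.86 (SE 0.10, 0.12 and 0.10). Gpt2, a mitochondrial alanine aminotransferase counted as an Atf4 target, fell from 66.0 and 70.8 CPM to 31.0 and 34.9 CPM (log2 fold change −1.06, SE 0.10, adjusted p = 2.4e-06). Serine and one-carbon enzymes had 7 higher and 2 lower of 24 tested, with 4 higher by DESeq2 and without cKO 1 and 1 lower without cKO 2. The 7 and 2 are 29.2% and 8.33% of those tested, against 9.11% and 7.33% of all tested genes. Shmt1, the cytosolic serine hydroxymethyltransferase, rose from 17.2 and 16.2 CPM to 64.9 and 67.7 CPM (log2 fold change 1.99, SE 0.10, adjusted p = 2.3e-09). Mthfd2, its mitochondrial folate partner, rose from 1.54 and 1.79 CPM to 3.89 and 3.52 CPM (log2 fold change 1.15, SE 0.25, adjusted p = 0.00573). Aldh1l2 fell from 26.3 and 25.6 CPM to 16.5 and 15.4 CPM (log2 fold change −0.70, SE 0.11, adjusted p = 3.5e-04). Among 27 tested amino acid transporters 4 rose and 3 fell (1 without cKO 1). The 4 and 3 transporters are 14.8% and 11.1% of those tested. Slc7a5, the leucine transporter LAT1, rose from 8.48 and 8.83 CPM to 29.3 and 28.1 CPM (log2 fold change 1.73, SE 0.12, adjusted p = 1.1e-07). Slc7a1, an arginine and lysine transporter, fell from 98.0 and 96.0 CPM to 55.8 and 57.6 CPM (log2 fold change −0.77, SE 0.08, adjusted p = 1.4e-05). Of 32 tested endoplasmic reticulum chaperone and unfolded protein genes edgeR called 0 higher and 2 lower (1 and 8 at an unadjusted p under 0.05), and DESeq2 gave 0 and 2 and limma-voom 0 and 3. The falls were 4 without Ctrl 2, 1 without Ctrl 1 or cKO 1 and 0 without cKO 2, and library totals gave 1 rise and 1 fall.

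Atf4 binds with C/EBP proteins at a composite element, and promoters of members that rose were read for its core TGATGNAA on both strands. The promoters are RefSeq's (GRCm38.p6), from 250 bases before to 50 after a gene's start. Of 11 risen members of the stress response list with a RefSeq promoter, 4 held the core (Asns, Gadd45g, Nupr1 and Trib3). Of 5 risen members of the synthetase list with such a promoter, Aimp2 among them, 2 did (Aars and Yars). The other risen members of the synthetase list had no promoter to read. Of risen serine and one-carbon genes with a promoter 0 of 5 held the core. The counts were 0 of 9 for NRF2 and glutathione, 0 of 10 for adult sarcomere and 1 of 11 for cardiac stress genes. By promoter the stress response genes are 4 of 13, against 3.97% of all 32851 promoters in the table. That list includes genes counted as Atf4 targets, and its members that did not rise were not read apart. The 4 of 13 therefore cannot be tied to the rise. Among tested genes with a promoter the core was in 2.63% of those that rose, 2.91% of those that fell and 2.73% of all. Nupr1 and Trib3 are weaker calls. Nupr1 (adjusted p = 0.0406) was lost with DESeq2 (0.128) and without each library (0.0584 without Ctrl 1, 0.143 without Ctrl 2, 0.253 without cKO 1 and 0.0929 without cKO 2), and Trib3 (adjusted p = 0.00950) was lost without Ctrl 1 (0.0749) and without cKO 2 (0.0693). The promoters of Asns, Gadd45g, Aars and Yars follow, with the core in capitals, on the gene's strand from 5′ to 3′. These are the genes of the stress response and synthetase lists with the core, leaving out the weaker calls Nupr1 and Trib3. The core, or its reverse complement, begins 23 bases before the gene's start in Asns, 101 in Gadd45g and 112 in Aars, which has 2, and 3 bases after it in Yars.
Asns, chr6:7693160-7693459, minus strand: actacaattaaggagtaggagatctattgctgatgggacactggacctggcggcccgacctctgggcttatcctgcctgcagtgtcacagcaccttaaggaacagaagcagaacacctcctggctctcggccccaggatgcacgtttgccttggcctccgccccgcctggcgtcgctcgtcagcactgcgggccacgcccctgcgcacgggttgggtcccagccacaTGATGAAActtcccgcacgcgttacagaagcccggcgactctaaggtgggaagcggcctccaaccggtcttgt
Gadd45g, chr13:51846425-51846724, plus strand: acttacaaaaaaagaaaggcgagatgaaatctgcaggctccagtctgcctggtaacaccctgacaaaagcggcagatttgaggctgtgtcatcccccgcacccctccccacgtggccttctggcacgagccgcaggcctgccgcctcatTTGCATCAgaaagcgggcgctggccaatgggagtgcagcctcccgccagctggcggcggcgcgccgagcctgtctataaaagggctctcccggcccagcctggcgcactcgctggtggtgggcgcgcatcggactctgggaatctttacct
Aars, chr8:111033592-111033891, plus strand: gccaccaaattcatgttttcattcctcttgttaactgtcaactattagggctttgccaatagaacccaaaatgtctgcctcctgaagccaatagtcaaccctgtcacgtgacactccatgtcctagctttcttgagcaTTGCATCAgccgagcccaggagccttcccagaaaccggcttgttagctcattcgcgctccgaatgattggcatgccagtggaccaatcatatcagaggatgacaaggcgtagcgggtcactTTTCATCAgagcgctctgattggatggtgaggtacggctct
Yars, chr4:129189653-129189952, plus strand: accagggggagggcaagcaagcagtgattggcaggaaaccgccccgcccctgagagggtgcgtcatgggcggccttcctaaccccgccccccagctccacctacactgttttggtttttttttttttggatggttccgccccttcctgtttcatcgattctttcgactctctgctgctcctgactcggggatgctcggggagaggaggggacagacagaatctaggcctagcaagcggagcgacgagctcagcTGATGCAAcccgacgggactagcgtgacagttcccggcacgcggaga

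A match is a run of letters and no evidence of binding. Acta1 is shown for the muscle programme. Its promoter holds a CArG box, the element bound by serum response factor, which begins 73 bases before the start. The box is in capitals. It occurs in 1.63% of all promoters and in 1.58% of tested genes with a promoter. Of risen genes with a promoter it was in 2 of 11 cardiac stress genes (Acta1 and Myl9) and 0 of 10 adult sarcomere genes.
Acta1, chr8:123894726-123895025, minus strand: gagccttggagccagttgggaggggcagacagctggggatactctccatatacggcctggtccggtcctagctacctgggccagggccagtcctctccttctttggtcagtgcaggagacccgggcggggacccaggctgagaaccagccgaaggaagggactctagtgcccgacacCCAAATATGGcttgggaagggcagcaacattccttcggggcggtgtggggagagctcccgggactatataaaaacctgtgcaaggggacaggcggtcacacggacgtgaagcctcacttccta

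Rises but no falls were called among p53 targets, with 51.6% of those tested higher against 9.11% of all tested genes. Of 31 tested genes edgeR called 16 higher and 0 lower (19 and 0 at an unadjusted p under 0.05, 14 and 0 by DESeq2, 16 and 0 by limma-voom), and 1 fell without Ctrl 1. The median was 0.47. Phlda3, which restrains AKT, went from 13.0 and 13.6 CPM to 71.4 and 69.3 CPM (log2 fold change 2.40, SE 0.10, adjusted p = 3.6e-10). Eda2r, a receptor of the TNF family, went from 2.04 and 1.79 CPM to 14.2 and 15.7 CPM (log2 fold change 2.97, SE 0.17, adjusted p = 2.0e-08), and Cdkn1a, the cell cycle inhibitor p21, went from 158 and 151 CPM to 323 and 333 CPM (log2 fold change 1.09, SE 0.08, adjusted p = 2.1e-07). Aen, an exonuclease, and Tnfrsf10b, a death receptor, rose by 1.06 (SE 0.10) and 1.29 (SE 0.20), and Bax, of apoptosis, by 0.43 (SE 0.09). Both knockout libraries lay above both controls in 22 of the 31 genes, against 28.7% of all tested genes.

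Cytosolic chaperones leaned higher, small heat shock proteins among them. Of those tested 43.6% rose and 5.13% fell, against 9.11% and 7.33% of all tested genes. Of 39 tested heat shock genes 17 rose and 2 fell, with a median of 0.27, and 11 rose without cKO 1. Their share of footprints went from 1.51% and 1.55% to 2.11% and 2.12%. Hspb1 went from 102 and 104 CPM to 285 and 269.7 CPM (log2 fold change 1.43, SE 0.08, adjusted p = 1.1e-08), Hspb8 from 301 and 282 CPM to 636 and 601 CPM (log2 fold change 1.08, SE 0.08, adjusted p = 2.2e-07) and Hspb7 from 2020 and 2012 CPM to 3527 and 3358 CPM (log2 fold change 0.77, SE 0.07, adjusted p = 4.3e-06). Cryab, αB-crystallin, which binds desmin and titin, went from 4953 and 5113 CPM to 6848 and 7136 CPM (log2 fold change 0.47, SE 0.07, adjusted p = 3.6e-04), and Bag3, the co-chaperone that works with Hspb8, rose by 0.48 (SE 0.08). The members that fell were Cct2 (by 0.44, SE 0.08) and Tcp1 (by 0.44, SE 0.08), subunits of the ring chaperonin that folds actin and tubulin, while its subunit Cct3 rose by 0.43 (SE 0.08).

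Antioxidant genes of the NRF2 and glutathione list had 12 (33.3%) higher and 2 (5.56%) lower of 36 tested, against 9.11% and 7.33% of all tested genes. Without cKO 2 the counts were 7 and 0, 0 fell without cKO 1, and 1 fell with library totals or by DESeq2. Srxn1, sulfiredoxin, went from 8.48 and 7.65 CPM to 26.3 and 19.7 CPM (log2 fold change 1.52, SE 0.15, adjusted p = 5.1e-06), and Txnrd1, a thioredoxin reductase, went from 84.0 and 66.4 CPM to 117 and 114 CPM (log2 fold change 0.62, SE 0.10, adjusted p = 6.4e-04). Gpx1 is a selenoprotein whose UGA codon for selenocysteine reads as a stop in the standard code. Its 46-codon frame went from 71.0 and 88.7 CPM to 166 and 194 CPM (log2 fold change 1.17, SE 0.11, adjusted p = 2.8e-06), and its 145-codon frame from 40.7 and 39.6 CPM to 54.6 and 57.0 CPM (0.48, adjusted p = 0.00144). The antioxidant response core TGACNNNGC was in promoters of 3 of 9 genes of the list that rose (Gclm, Srxn1 and Txnrd1), against 16.8% of all tested genes with a promoter and 18.4% of those that rose. By promoter these are 3 of 15 against 12.4% of all promoters. Of 16 metallothionein and zinc genes 2 rose, Mt3 and Mt2 (by 0.55, SE 0.08), and 2 fell (1 without Ctrl 2 or cKO 1 or with library totals).

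**Figure D5:**
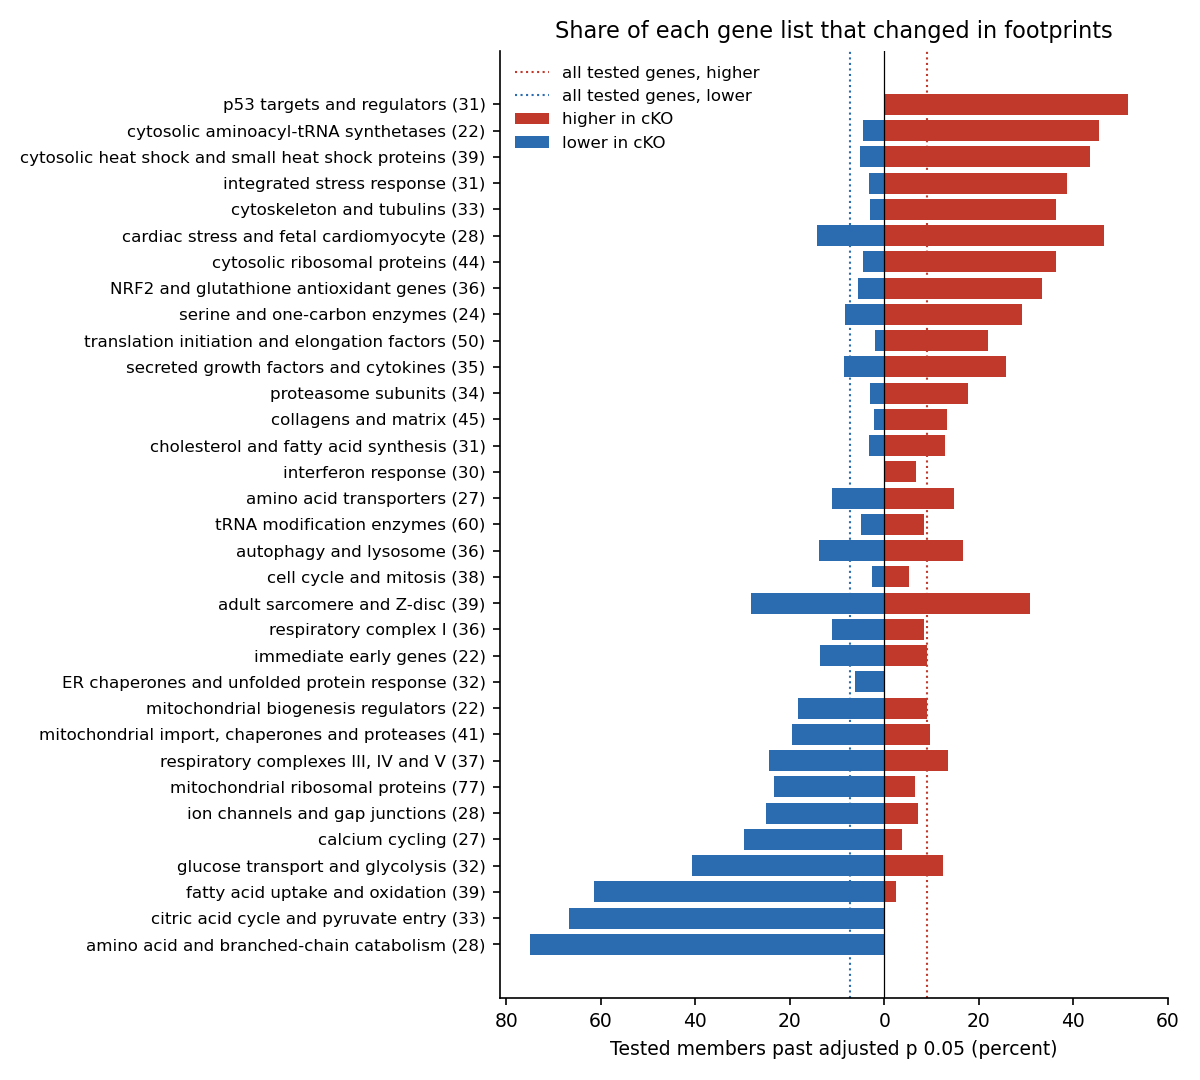
Percentage of tested members of each pathway list with at least 20 tested genes that were higher (red, right) or lower (blue, left) in cKO, with the number tested in brackets and dotted lines at the shares of all tested genes (9.11% and 7.33%). The 3 fuel oxidation lists stand at the bottom with 21 of 28, 22 of 33 and 24 of 39 members lower, and the p53 list at the top with 51.6% higher.

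Tubulins and other cytoskeletal genes were also higher, 12 of 33 tested against 1 lower (2 without cKO 2). The 12 and 1 are 36.4% and 3.03% of those tested, against 9.11% and 7.33% of all tested genes. Tubb2a rose from 40.4 and 42.3 CPM to 169.7 and 148 CPM (log2 fold change 1.94, SE 0.09, adjusted p = 2.1e-09). Tubb4b rose from 112 and 130.3 CPM to 242 and 228 CPM (log2 fold change 0.95, SE 0.09, adjusted p = 3.2e-06) and Tuba1c from 2.12 and 1.79 CPM to 10.6 and 7.13 CPM (log2 fold change 2.19, SE 0.23, adjusted p = 1.1e-05). Tuba4a, the member that fell, went from 839 and 1015 CPM to 637 and 599 CPM (log2 fold change −0.59, SE 0.09, adjusted p = 3.6e-04). Tubulin genes share long stretches of coding sequence, so footprints may be shared among them. Of 35 tested secreted factors 9 (25.7%) rose and 3 (8.57%) fell. Nrg1, the neuregulin that signals to cardiomyocytes, rose from 3.78 and 5.53 CPM to 13.5 and 13.3 CPM (log2 fold change 1.51, SE 0.17, adjusted p = 2.5e-05), and Inhbb, an activin subunit, rose from 1.37 and 1.43 CPM to 3.20 and 3.81 CPM (log2 fold change 1.32, SE 0.27, adjusted p = 0.00316). The receptor Tnfrsf12a, which binds the cytokine TWEAK, rose from 31.5 and 34.2 CPM to 112 and 100.3 CPM (log2 fold change 1.69, SE 0.09, adjusted p = 1.1e-08).

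Genes of protein turnover, the cell cycle and the matrix were read against the 9.11% higher and 7.33% lower among all tested genes. Of 34 proteasome genes 6 (17.6%) rose (3 without cKO 1) and 1 (2.94%) fell (2 without Ctrl 1 and by DESeq2, 3 without Ctrl 2), with Psma5 rising from 25.2 and 26.8 CPM to 61.3 and 48.5 CPM (log2 fold change 1.08, SE 0.11, adjusted p = 1.1e-05). Of 36 tested autophagy and lysosome genes 6 (16.7%) rose and 5 (13.9%) fell, and the falls were 3 without Ctrl 1, 1 without cKO 1 and 2 without cKO 2 or with library totals. Sqstm1, the receptor p62, rose from 615 and 606 CPM to 925 and 892 CPM (log2 fold change 0.57, SE 0.07, adjusted p = 7.6e-05) and Pink1, the kinase that marks damaged mitochondria, fell from 481 and 484 CPM to 304 and 305 CPM (log2 fold change −0.66, SE 0.07, adjusted p = 2.1e-05). Of 38 tested cell cycle genes 2 rose (4 with library totals) and 1 fell (0 without Ctrl 1 or cKO 1, 2 without Ctrl 2). Ccnd2, cyclin D2, rose from 78.8 and 76.8 CPM to 178 and 162 CPM (log2 fold change 1.13, SE 0.08, adjusted p = 3.2e-07). Of 45 collagen and matrix genes 6 rose and 1 fell, with 10 and 2 without Ctrl 2 and 0 lower without cKO 1 or cKO 2.

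Marker genes of the cell types of the heart were read beside these results. Their calls stand against the 9.11% higher and 7.33% lower among all tested genes. All 10 cardiomyocyte markers were among the tested genes, and they held 16.24% and 15.90% of footprints in the controls and 14.17% and 14.31% in the knockouts. Myh6 and Mb lost the most CPM of all genes called, with means from 46233 to 36436 CPM and from 28383 to 22615 CPM. Of the 10 log2 fold changes 1 lay above 0 (Tnni3, 0.003), and that of Ttn was −0.067. Tnnc1, not on this list, rose, and the shares of the sarcomere list overlapped. In edgeR's test 4 fell and 0 rose (7 and 0 at an unadjusted p under 0.05, by limma-voom and with 1 count as the lowest total allowed, 5 and 0 by DESeq2). Of 10 fibroblast markers 0 rose and 0 fell by edgeR, DESeq2 or limma-voom (0 and 1 at an unadjusted p under 0.05), while 2 rose and 1 fell without Ctrl 2, and their shares overlapped (0.941% and 1.06% against 1.07% and 0.996%). Of 8 tested macrophage markers 0 passed by edgeR, DESeq2 or limma-voom (2 were higher at an unadjusted p under 0.05 and with library totals), with shares of 0.145% and 0.148% against 0.160% and 0.168%. Of 10 tested endothelial markers 1 rose and 1 fell, and neither call held without Ctrl 1 or cKO 1, while 4 fell without Ctrl 2 or cKO 2, 2 by DESeq2 and 0 with library totals. Erythroid markers held 0.0281% and 0.0344% against 0.0526% and 0.0349%, with 1 of 7 higher by edgeR (0 by DESeq2 and without Ctrl 1 or cKO 1, 3 without Ctrl 2, 6 without cKO 2, 5 with library totals). Schwann and neuronal markers held 0.0052% and 0.0054% against 0.0140% and 0.0136%. Of these markers Tubb3 and Uchl1 (from 49.2 and 50.6 CPM to 119 and 118 CPM; log2 fold change 1.24, SE 0.08, adjusted p = 1.1e-07) rose, and of the other 3 tested 1 was higher at an unadjusted p under 0.05 and 0 at the adjusted one. The part of the lower cardiomyocyte marker share in the falls of fuel genes was not tested.

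Frame length was described as well. Frames were chosen by summed footprints, with the longer frame taken in a tie. Longer frames can hold more footprints, so the choice is not independent of length. Genes that rose had shorter frames than those that fell, with medians of 332 and 452 codons against 438 for all tested genes. Of 956 genes with frames of up to 100 codons 117 (12.2%) rose and 53 (5.54%) fell. Of 1792 genes with frames over 1000 codons 82 (4.58%) rose and 144 (8.04%) fell. The median log2 fold change went from 0.11 in the first class to −0.05 in the last. This is a description across genes, with no test.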

How the data were processed

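The values are footprint counts per open reading frame that the authors deposited as raw whole numbers, with no normalisation. Per the labels' protocols the libraries were made with a small RNA kit and short PCR products were kept. The submitters' processing notes name GRCm38, cutadapt, STAR, HISAT2, featureCounts, Bowtie, Bowtie2 and DESeq2. The sources used here do not give which of them made this table or how reads matching several places were counted. Frames of 1 gene were treated apart, and the kept frames held 98.914% of footprints.

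Counts were fitted in R 4.3.3 with edgeR 4.0.16 (TMM factors, filterByExpr, glmQLFit and glmQLFTest, adjusted p under 0.05), and 4352 genes fell below the filter. The SE is the log2 fold change over the square root of the F statistic. Alternatives used limma 3.58.1 and DESeq2 1.42.0. On simulated counts for 13514 genes the fit recovered 60% of 100 genes changed 1.5-fold and 85% of 100 changed 2-fold, with 6 false among 151 calls. The simulated spread was that fitted to these same libraries. Changes were placed only in genes above a floor of summed footprints, so the rates do not cover the lowest tested genes. Libraries held 25.17 to 39.68 M footprints, and 10 genes called higher had 0 in both controls.

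Genes named are Mettl1, Wdr4, ketone genes, the 12 largest changes per direction (mean of at least 1 CPM, no overlap, no predicted models), the 12 smallest p-values beyond these, and up to 4 members per list with the smallest p. Further members of the lists, and the CArG box, were chosen after values were seen. Some genes that the rule names are not reported here. All members and lists were chosen with earlier results of these data known. Shares of footprints were compared by a two-sided exact permutation test. Frame lengths come from the table's coordinates, and proteins were not used here. RNA, tRNA and H9C2 files were not used here.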

Additional observations from a re-analysis of the deposited data

How the results depend on the processing

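More genes rose than fell under each alternative tried (other scalings, count filters, DESeq2, limma-voom, frame choices, a replicate block, 1 library left out). Library totals gave 657 genes lower. DESeq2 gave 951 higher and 833 lower. Leaving out 1 library gave 667 to 1010 higher and 481 to 930 lower, and the lone sample of that genotype was assumed to vary like the others. The fit with the replicate block gave 1472 higher and 1255 lower, but the labels do not say that the numbers pair samples, and the deviations of same-numbered libraries correlated at −0.0404. Without genes changed at least 2-fold in the denominator, the share of footprints moved by −0.765 points for the citric acid cycle, 0.628 for heat shock and 0.514 for the sarcomere.

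For 264 named genes, 3274 of 3425 alternative values kept direction and side of the threshold, 87 lost and 58 gained a call, and 6 changed sign. With library totals Myh11 stood at 0.0082, and on its longest frame Pdlim5 stood at 0.38. Without 1 library mt-Nd2 ran from −0.78 to 0.021, Myh11 from −0.15 to 0.013, Ptprc from −0.072 to 0.19 and Msln from −0.22 to 0.0061. Apart from the frame choice for Pdlim5, the cause was not tested. Depth limits genes at or below 1 CPM, of which 6.81% were called, against 51.1% above 1000 CPM.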
